A study of Mus musculus with 3 samples.

Results

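Mature oligodendrocytes in which no Klk6 transcript was counted were examined in single-cell RNA sequencing libraries of the mouse medial vestibular nucleus (MVN), the brainstem nucleus that receives input from the balance organs. A cell was taken as a member when its barcode held at least 200 genes, when at least 3 of the 6 genes Mog, Mag, Mobp, Opalin, Ermn and Cldn11 had a unique molecular identifier (UMI, a tag that counts one captured transcript), and when Klk6 had 0 UMIs. Members also had under 15 UMIs per 10000 of the newly formed oligodendrocyte genes Enpp6, Bmp4, Neu4, Itpr2, Tcf7l2 and Gpr17, under 5% of UMIs from the choroid plexus gene Ttr, fewer than 3 of the 4 precursor genes Pdgfra, Cspg4, C1ql1 and Lhfpl3, and fewer than 3 of the 4 microglial genes Cx3cr1, P2ry12, Csf1r and C1qa. The members were thus chosen by measured UMIs of these genes. The rule took 2219 of the 13964 cells with at least 200 genes, with 672 from the control library, 806 from the ULI library and 741 from the ULC library. The levels of these genes are given as a description.

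The study compared control mice with mice that had undergone unilateral labyrinthectomy, a destruction of the inner ear on one side. All mice were C57BL/6 by the labels (C57BL/6J in the study's methods), were operated on at postnatal day 20 and were killed 1 day later. The control library pooled 10 mice whose middle ear was opened and whose labyrinth was left intact, as the study's methods have it, although the treatment label of all 3 libraries names labyrinthectomy. ULI was the MVN on the operated side of 11 pooled mice and ULC the MVN on the opposite side of the same number, and which side the control tissue came from is not given in the sources used here. There was 1 library per group, so no difference could be set against a spread between animals, no test was made, and the library and the condition cannot be told apart. All intervals are 95% intervals of counting error only.

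Mature oligodendrocytes wrap axons in compact myelin, hold the axon at the edges of the node of Ranvier, and supply it with energy substrates. They are not uniform. In brainstem and spinal cord, some carry Klk6, a secreted serine protease, together with S100b, Anxa5 and Hopx, while others carry Ptgds, the prostaglandin D synthase. Oligodendrocytes also carry the glucocorticoid receptor, through which stress hormones act on transcription.

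The members carried the markers of the name. Mal, a raft protein of myelin not used by the rule, had a UMI in 96.3%, 89.3% and 79.1% of the control, ULI and ULC members, at 11966, 11720.2 and 10837 CPM (UMIs scaled to 1e6, over the summed UMIs of the members of a library). Mobp was detected in 98.4%, 96.0% and 98.1% of members, and Cldn11, the tight junction protein of myelin, in 97.2%, 99.8% and 99.6%. Mag, an adhesion protein of the inner myelin layer, was detected in 94.2%, 87.6% and 93.3% of members. The outer myelin protein Mog was detected in 81.2%, 81.5% and 64.9%, and the cytoskeletal protein Ermn in 83.3%, 73.1% and 61.8%. Opalin, a membrane protein of myelin, had a UMI in 20.7%, 26.7% and 23.1% of members. The 9 Schwann cell genes in the table summed to 140, 187 and 235 CPM, with Prx at 0 in all 3 libraries, and 11, 19 and 12 members had at least 2 of the leading ones, holding 5.13%, 10.04% and 9.31% of the summed member UMIs. The list includes Egr2 and Sox2, and its part in their ratios was not tested.

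Near the thresholds of the rule, 87 control, 120 ULI and 143 ULC members had exactly 3 of the 6 markers, and 151, 90 and 85 further cells met every other condition with exactly 2. A further 160, 27 and 40 cells were kept out by a single Klk6 UMI. Members with 10 to under 15 UMIs per 10000 of the newly formed genes numbered 93, 42 and 77, and cells just outside, with 15 to under 20, numbered 27, 40 and 48. Most members in the operated libraries had none of these UMIs at all (608 of 806 in ULI and 581 of 741 in ULC), against 322 of 672 in control, where the median depth was higher. Over the wider list of newly formed oligodendrocyte genes, which holds the 6 genes of the rule, 2 of 15 measured were higher and 2 lower in ULI, and 9 of 15 were higher and 2 lower in ULC, with median log2 ratios to control of 0.47 and 1.22, and of -0.09 and 1.22 in members under 5000 UMIs. Over all genes 5.64% were higher and 12.1% lower in ULI, and 12.5% and 11.9% in ULC. The summed level of the list was 2823, 2699 and 5710 CPM, and Sirt2 held 3831 CPM of it in ULC.

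Sequencing depth separated the members into shallow and deep cells. Control members had a median of 1684.5 UMIs, ULI members 873 and ULC members 769, and the summed UMIs were 4041682, 3301408 and 1677639. Members with at least 5000 UMIs numbered 242, 190 and 66 in control, ULI and ULC, that is 36.0%, 23.6% and 8.91%, with medians of 12656, 13416.5 and 15649.5 UMIs. The members below 5000 UMIs had medians of 1018, 705.5 and 738. The deep cells were thus of like depth in the 3 libraries and fewest in ULC, and ratios between libraries are given for both depth classes where they differ.

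**Figure D1:**
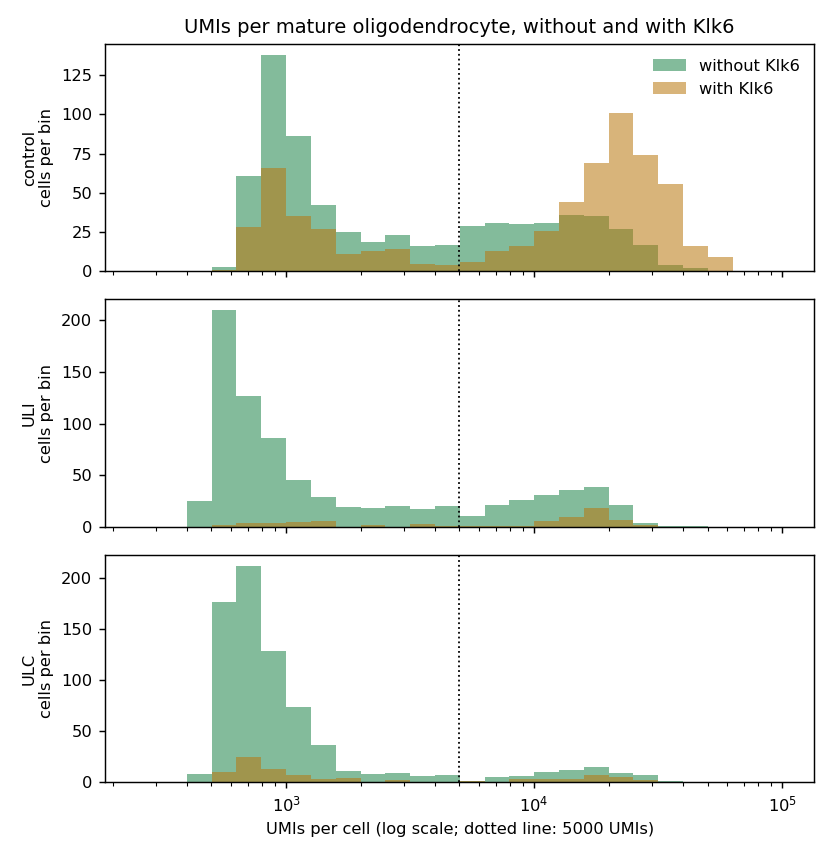
Distribution of UMIs per cell (log axis) for the members and for mature oligodendrocytes with Klk6 in each library. The members fall into shallow and deep cells in every library, and 36.0% of control, 23.6% of ULI and 8.91% of ULC members have at least 5000 UMIs.

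Transcripts of other cell types were counted in some members. Members with at least 2 of the leading markers of precursors, microglia, astrocytes, neurons, endothelium, ependyma or pericytes and fibroblasts numbered 110 in the control library, 38 in ULI and 44 in ULC, and held 35.2%, 12.4% and 23.2% of the summed member UMIs. Microglial markers accounted for 67, 13 and 16 of these cells. The 8 endothelial markers summed to 1265, 67.5 and 188 CPM, and the 7 ependymal markers to 168, 9.69 and 62.0 CPM, with Tmem212 at 0 in ULI and ULC. Choroid plexus markers were least frequent in control, with at least 2 in 112, 220 and 172 members, which held 39.7%, 71.1% and 73.0% of the summed member UMIs. Of these genes, Ttr stood at 111, 283 and 818 CPM. Enpp2, a further gene of that list which oligodendrocytes also express, stood at 4816, 4706 and 3995 CPM. Ratios were also taken without the 110, 38 and 44 cells, which leave the choroid plexus and Schwann lists aside, and beside the median of the same ratio in up to 8 other cell classes of the same libraries. Among these classes were mature oligodendrocytes with Klk6, newly formed oligodendrocytes and precursors.

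Members made up a similar share of each library before depth was made equal. They were 14.6% (13.6 to 15.6) of control cells, 16.7% (15.7 to 17.8) of ULI cells and 16.3% (15.2 to 17.4) of ULC cells. The order depended on depth and on the denominator. With every cell thinned to 500 UMIs the shares were 18.4%, 15.8% and 15.2%, of 4600, 4715 and 4428 cells with that many UMIs. With every cell thinned to 1000 UMIs they were 17.6%, 11.2% and 10.3%. Over cells other than choroid plexus they were 14.7%, 17.6% and 21.2%. No order of the 3 libraries therefore held across these settings.

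The number of mature oligodendrocytes that the rule passed over for a Klk6 UMI differed much more. Of all mature oligodendrocytes, 634 of 1306 (48.5%) in control carried Klk6, against 72 of 878 (8.20%) in ULI and 88 of 829 (10.6%) in ULC. Thinned to 500 UMIs, the shares with Klk6 were 16.7%, 2.62% and 6.79%, and thinned to 5000 UMIs they were 51.4%, 15.1% and 22.2%. The share was highest in control in each of the depth bins, although at 5000 to 10000 UMIs control (28.0%) and ULC (4 of 16 cells, 25%) had overlapping intervals. Among cells of 500 to 1000 UMIs it was 32.0%, 2.30% and 8.50% in the same order, and among cells of 20000 UMIs or more it was 83.7%, 22.9% and 29.2%. In microglia, which should lack the gene, Klk6 had a UMI in 2.51%, 0.0930% and 0.528% of cells at median depths of 3138.5, 2426 and 2673 UMIs. A count of 0 Klk6 UMIs in a shallow cell does not show that the cell lacked the transcript.

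**Figure D2:**
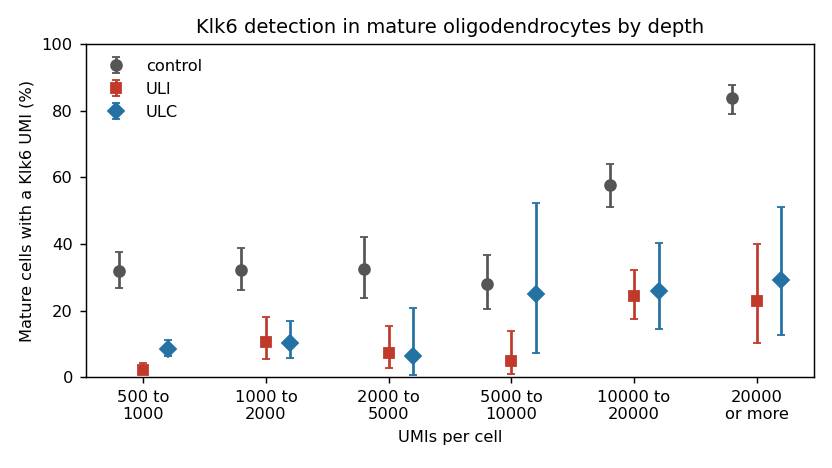
Share of mature oligodendrocytes with at least 1 Klk6 UMI (percent, with 95% binomial intervals) by UMIs per cell in each library. The control share lies above both operated libraries in every depth bin, from 32.0% against 2.30% and 8.50% in the shallowest bin to 83.7% against 22.9% and 29.2% in the deepest.

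Even among cells without Klk6, genes known to accompany Klk6 were lower in the operated libraries. S100b, a calcium-binding protein, had a UMI in 82.0%, 23.6% and 25.2% of the control, ULI and ULC members, at 1294, 229 and 327 CPM. Its log2 ratio to control was -2.50 (-2.61 to -2.39) in ULI and -1.98 (-2.11 to -1.86) in ULC. Anxa5, an annexin that binds membrane phospholipid, stood at 279.6, 70.9 and 33.4 CPM, with log2 ratios of -1.98 and -3.07. The membrane complement inhibitor Cd59a stood at 87.3, 27.6 and 14.3 CPM, with log2 ratios of -1.66 and -2.61. Hopx, a small homeodomain protein, stood at 106, 55.4 and 29.8 CPM, and its ratio was past 2-fold only in ULC (-0.94 in ULI and -1.84 in ULC). A gene is here called higher or lower when it had at least 50 UMIs in both libraries together, a ratio of at least 2-fold and an interval that left out equality.

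Of the 7 genes of this group, 4 were lower and 0 higher in ULI against control, with a median log2 ratio of -1.13 against -0.02 over all 8582 genes measured, of which 12.1% were called lower and 5.64% higher. In ULC 6 of 7 were lower and 0 higher, with a median of -1.98 against -0.03 over all 8201 genes measured, of which 11.9% were called lower and 12.5% higher. Because the cells were chosen for 0 Klk6 UMIs in libraries whose Klk6 share differed, these genes are not independent of the rule. S100b and Anxa5 were also lower in the median over the other cell classes, which include the Klk6 cells, newly formed oligodendrocytes and precursors. The median S100b ratio over 8 other cell classes was -2.09 in ULI and -0.92 in ULC, and that of Anxa5 was -1.29 over 7 classes and -1.16 over 8. Microglia carried S100b in 12.6%, 2.42% and 7.04% of cells. In members of at least 5000 UMIs, where failure to count Klk6 is less likely, the S100b log2 ratios were -2.42 and -3.21 and those of Anxa5 were -1.95 and -4.06.

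Ptgds showed the opposite order and the largest separation among the genes of mature oligodendrocytes with little Klk6. It had 135 UMIs in 25 control members, 4396 in 262 ULI members and 4487 in 226 ULC members, that is 33.4, 1332 and 2675 CPM. Its log2 ratio was 5.32 (5.07 to 5.57) in ULI and 6.32 (6.08 to 6.58) in ULC. Thinned to 5000 UMIs, it was detected in 4.55%, 55.3% and 71.2% of 242, 190 and 66 members. Ptgds was also higher in other cells. The median log2 ratio was 5.01 over 5 other classes in ULI and 3.96 over 6 in ULC, microglia carried it in 0.197%, 1.30% and 2.46% of cells, and cells without any of the 6 markers carried it, thinned to 5000 UMIs, in 6.25%, 20% and 45.9%. In members the shares were higher than in the marker-free cells in ULI and ULC. In control they were lower at 5000 UMIs and higher at 500 UMIs (0.893% against 0.431%). The part of free RNA in the Ptgds counts was not tested.

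The other genes of that list went both ways. Il33, an alarmin, had 8, 42 and 9 UMIs and was past 2-fold in ULI, with all 8 control UMIs in 1 cell. Gstp1, a glutathione transferase, had 11, 3 and 143 UMIs, with a log2 ratio of 4.97 in ULC against 3.70 over 4 other classes. Apod, a lipid carrier, stood at 4897, 3208 and 1987 CPM, with log2 ratios of -0.61 and -1.30. Transferrin, Trf, stood at 1307, 461 and 355 CPM, with log2 ratios of -1.50 and -1.88, and its median over 7 other classes was -2.58 and -2.17. Despite the name of the list, Apod and Trf were lower in members than in Klk6 cells, both of at least 5000 UMIs. The log2 ratios in control, ULI and ULC were -1.06, -1.78 and -2.31 for Apod and -0.81, -1.13 and -1.97 for Trf. Ptgds and Opalin were higher in members in that comparison. Carbonic anhydrase Car2 varied little, at 2002, 1828 and 1512 CPM. The rule gene Opalin, a sialylated membrane protein of myelin, stood at 172, 295 and 393 CPM, and among members under 5000 UMIs its log2 ratios were 2.56 and 2.72 where all members gave 0.78 and 1.19. Over the list, 2 of 14 measured genes were higher and 4 lower in ULI, with a median log2 ratio of -0.10, and 3 of 13 were higher (Ptgds, Gstp1 and Opalin) and 3 lower in ULC, with a median of 0.14. The shares over all genes were 5.64% higher and 12.1% lower in ULI, and 12.5% and 11.9% in ULC. Among members under 5000 UMIs the list medians were 0.74 and 0.63.

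**Figure D3:**
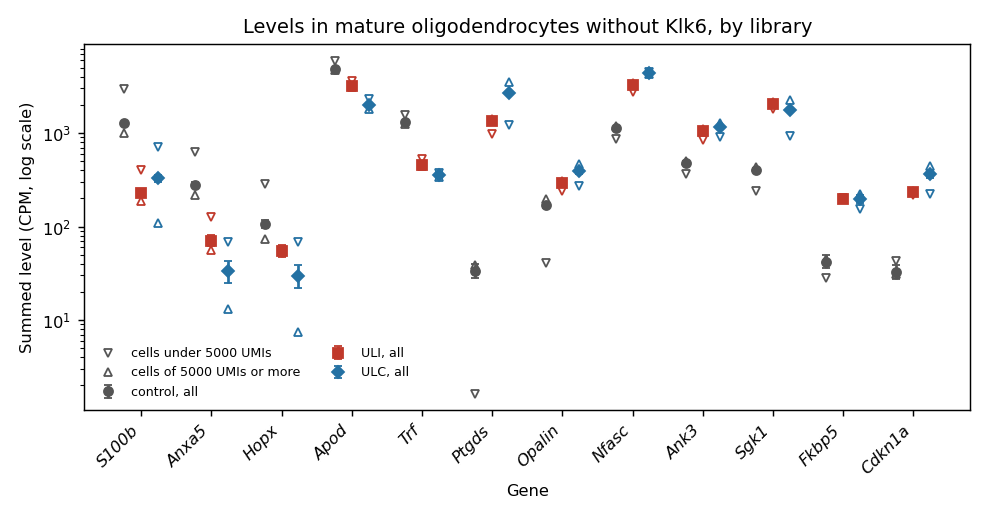
Level (CPM of summed UMIs, log axis) of 12 genes in all members of each library (filled symbols, with 95% Poisson intervals) and in members under and over 5000 UMIs (open triangles). Ptgds stands at 33.4 in control, 1332 in ULI and 2675 in ULC, while S100b stands at 1294, 229 and 327 and Anxa5 at 279.6, 70.9 and 33.4.

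Within single libraries, deep members with Ptgds differed from those without. With each of the 242, 190 and 66 members of at least 5000 UMIs thinned to 5000 UMIs, 7, 91 and 41 had at least 2 Ptgds UMIs, and 231, 85 and 19 had none. S100b stood at 143, 83.5 and 82.9 CPM in the cells with Ptgds, and at 1060, 282 and 158 CPM in those without, lower with Ptgds in each library. Mal stood at 18800, 14969 and 16380 CPM with Ptgds and 11410, 9139 and 6242 CPM without. Sgk1, a kinase induced by glucocorticoid, stood at 943, 3182 and 3161 CPM with Ptgds and 437, 1485 and 1211 CPM without. These 3 genes therefore had the same order between the cell sets in the 3 libraries, with only 7 Ptgds cells in control and 19 cells without Ptgds in ULC. Cells of 1 library are not replicates, and these values describe the libraries.

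Part of the genes known to respond to glucocorticoid were higher in members of the operated sides. Of 19 measured genes of the list, 7 were higher and 0 lower in ULI, with a median log2 ratio of 0.65, and 11 were higher and 0 lower in ULC, with a median of 1.99, where 5.64% and 12.5% of all genes were called higher. The other 12 and 8 genes did not pass the call. The medians of the same genes over the other cell classes were 0.37 and 0.92. The members thus had the larger medians, but the genes were also raised elsewhere in the libraries.

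Sgk1, a kinase that acts on ion channels and transporters, was past 2-fold on both sides. Summed over control, ULI and ULC members it had 1621, 6795 and 2974 UMIs, that is 401, 2058 and 1773 CPM, and was detected in 39.9%, 57.6% and 43.3% of members. Its log2 ratio was 2.36 (2.28 to 2.44) in ULI and 2.14 (2.06 to 2.23) in ULC, against 1.08 and 1.04 over 7 other classes. Thinned to 5000 UMIs, it was detected in 64.9%, 84.7% and 87.9% of members. Fkbp5, a co-chaperone of the glucocorticoid receptor, stood at 42.3, 196 and 197 CPM, with log2 ratios of 2.21 and 2.22 against 1.86 and 1.48 in the other classes. The 2 operated sides did not differ in Fkbp5 beyond counting error (ULI against ULC -0.01, -0.20 to 0.19).

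Cdkn1a, the cell cycle inhibitor p21, was further above the other classes than Sgk1 or Fkbp5. Its levels were 32.9, 236 and 362 CPM, with log2 ratios of 2.84 (2.58 to 3.12) and 3.46 (3.19 to 3.74), against 0.51 and 0.92 in the other classes. Without the members that carried markers of other classes, the ratios were 3.47 and 4.35. Thinned to 5000 UMIs, Cdkn1a was detected in 7.02%, 36.8% and 40.9% of members, and in 42.0%, 34.6% and 50% of cells without the 6 markers, so in control it was rarer in members than in the other cells. Fam107a, an actin-binding protein, had 38, 115 and 79 UMIs, and log2 ratios of 1.89 and 2.32. Without the cells carrying other markers it had 3, 108 and 59 UMIs.

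Some genes of the list separated the operated sides. Ddit4, an inhibitor of mTORC1, stood at 112, 119 and 623 CPM, with log2 ratios of 0.09 (-0.11 to 0.29) and 2.48 (2.32 to 2.64). In the other classes the ratios of Ddit4 were -1.10 and 1.17. Per1, a clock gene, stood at 13.9, 21.8 and 72.7 CPM, with log2 ratios of 0.65 and 2.39. Plin4, a lipid droplet protein, had 0, 28 and 50 UMIs. Its CPM in ULC was 40.2-fold that of the 3 UMIs taken as the floor for control, a ratio to the floor and not an interval limit. Tsc22d3, also known as GILZ, stood at 223, 256 and 220.0 CPM, and its log2 ratios of 0.20 and -0.02 were not past 2-fold. Sult1a1, a sulfotransferase, had 20, 54 and 8 UMIs, and was past 2-fold in ULI with a log2 ratio of 1.72, but 8 of its 20 control UMIs and 7 of its 54 ULI UMIs lay in members under 5000 UMIs, where the ratio was -0.31.

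**Figure D4:**
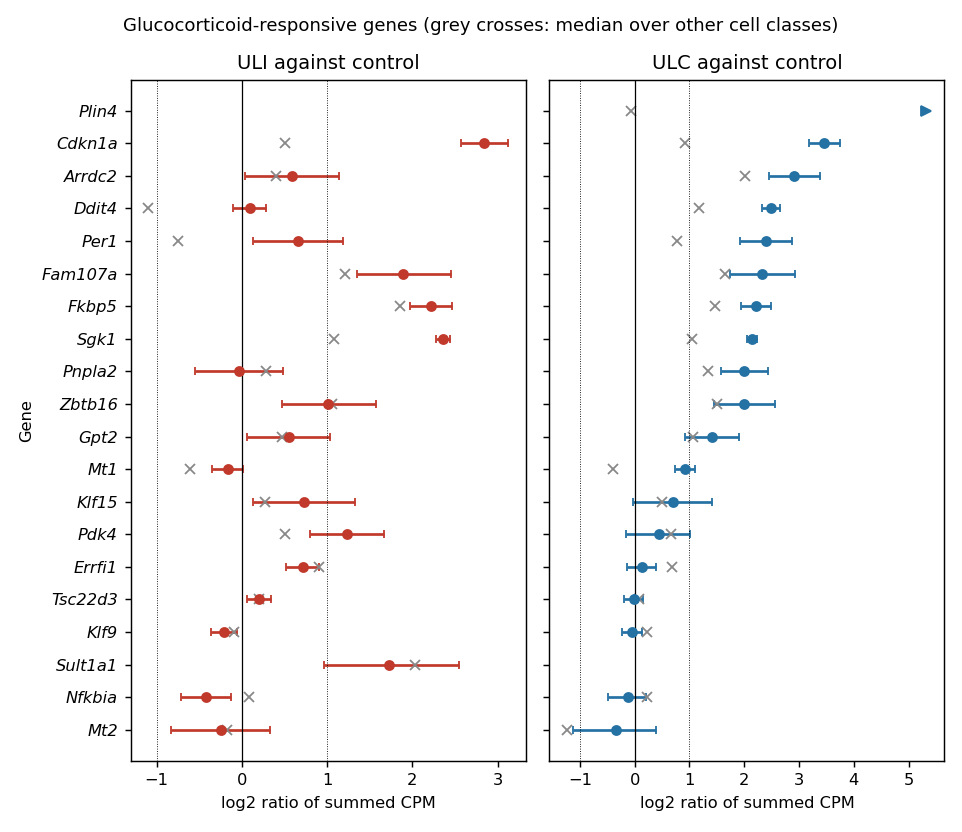
Log2 ratio of summed CPM to control for glucocorticoid-responsive genes in members, in ULI (left) and ULC (right), with 95% counting intervals, dotted lines at 2-fold, an arrowhead for a lower bound, and grey crosses at the median over the other cell classes. Sgk1, Fkbp5, Cdkn1a and Fam107a lie past 2-fold on both sides, and Ddit4 and Per1 in ULC but not in ULI.

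The promoters of these genes are shown because the glucocorticoid receptor is known to bind the sequence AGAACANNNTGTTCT and its partial forms. RefSeq promoter sequences on GRCm38.p6 were matched by symbol for 21 of the 22 genes of the list, with 33 start sites, and the 250 bases before each start were searched on both strands. AGAACANNNTGT, which reads ACANNNTGTTCT on the other strand, was in 3 of the 33 windows (9.09%), those of Sgk1 and Fam107a, against 121 of all 32851 windows (0.368%). The full form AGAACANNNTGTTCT, which contains the shorter one on both strands, was in 1 window of the list, that of Sgk1, and in 3 of all 32851 windows. The letters AGAACA or TGTTCT alone were in 21.2% of the list's windows and 16.1% of all windows. The sequences below run 5′ to 3′ on the strand of the gene, from 250 to 51 bases before the start, and the capitals mark the match. Sgk1 lies on the plus strand at chr10:21993640-21993839, with the match 189 to 175 bases before 1 of its 6 starts. Fam107a lies on the minus strand at chr14:8309830-8310029, with the match 116 to 105 bases before 1 of its 3 starts. A neighbouring start of Fam107a shares this match, so it was counted in more than 1 of the 3 windows. A match is a description of these letters and not a measured site.
Sgk1: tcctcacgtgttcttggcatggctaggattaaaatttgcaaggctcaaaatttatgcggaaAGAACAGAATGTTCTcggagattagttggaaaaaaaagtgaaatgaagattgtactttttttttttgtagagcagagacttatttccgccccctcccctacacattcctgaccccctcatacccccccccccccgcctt
Fam107a: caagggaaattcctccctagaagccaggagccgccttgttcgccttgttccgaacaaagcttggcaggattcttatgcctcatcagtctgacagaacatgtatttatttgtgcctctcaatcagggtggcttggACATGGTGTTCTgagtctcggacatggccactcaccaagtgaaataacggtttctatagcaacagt

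Immediate early genes, which neural and glial cells induce within minutes of a stimulus or of tissue handling, were in part higher. Of 24 measured in ULI, 7 were higher and 3 lower, with a median log2 ratio of 0.41, and of 20 measured in ULC, 4 were higher and 3 lower, with a median of 0.67. In members under 5000 UMIs the list medians were -0.40 and 0.12, and without the members that carried other markers they were 1.19 and 1.86. Over all genes 5.64% were higher and 12.1% lower in ULI, and 12.5% and 11.9% in ULC. Fos stood at 99.7, 439 and 331 CPM, with log2 ratios of 2.14 and 1.73 against 0.97 and 0.95 in 8 other classes. The Fos ratio depended on which members were summed. It was 0.34 and 1.19 in members under 5000 UMIs, and 3.22 and 3.40 without the members that carried other markers. Egr2 had 33, 122 and 92 UMIs, with log2 ratios of 2.18 and 2.75, and 3.47 and 4.06 without those members. Thinned to 5000 UMIs, Fos was detected in 14.9%, 40.5% and 40.9% of members. Cells without the 6 markers carried it in 49.8%, 59.3% and 52.0% thinned to 1000 UMIs, where members did in 4.26%, 15.6% and 19.8%.

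Of 17 measured heat shock genes, 2 were higher and 3 lower in ULI and 2 were higher and 1 lower in ULC, with medians of 0.12 and 0.07, and -0.38 and 0.22 in members under 5000 UMIs. The share higher in ULC was near the 12.5% over all genes. Of all genes, 11.9% were lower in ULC, and 5.64% were higher and 12.1% lower in ULI. Hspa1b, an inducible chaperone that shares most of its sequence with a neighbouring copy, stood at 97.2, 319.9 and 349.9 CPM, with log2 ratios of 1.72 and 1.85, and 2.41 and 2.56 without the members that carried other markers. The sources used here do not say how reads were divided between the copies. Cryab, a small chaperone of myelin, stood at 1021, 418 and 1128 CPM, and was lower in ULI alone, with a log2 ratio of -1.29 in ULI and 0.14 in ULC.

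Transcripts of compact myelin were largely within 2-fold of control. Of 18 genes measured, the rule's markers included, 0 were higher and 1 lower in ULI, with a median log2 ratio of -0.08, and 3 were higher and 2 lower in ULC, with a median of 0.17. Because the cells were chosen for UMIs of these markers, the counts and medians of the list are not independent of the rule. Among all genes 5.64% were higher and 12.1% lower in ULI, and 12.5% and 11.9% in ULC. Mal had log2 ratios of -0.03 and -0.14. Mbp, myelin basic protein, stood at 9173, 4969 and 14114 CPM, with log2 ratios of -0.88 and 0.62, neither past 2-fold. Cnp, the cyclic nucleotide phosphodiesterase of uncompacted myelin, had the same order at 4351, 2209 and 6029 CPM, with log2 ratios of -0.98 and 0.47. For both, ULI was lowest and ULC highest, and the same order held over 8 other classes for Mbp (-0.93 and 0.47).

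A few myelin genes were past 2-fold. Gjb1, connexin 32, which couples myelin layers, stood at 232, 83.0 and 189.6 CPM, and was lower in ULI with a log2 ratio of -1.48. Pmp22, a membrane protein best known from peripheral myelin, stood at 133, 92.7 and 32.2 CPM, with log2 ratios of -0.52 and -2.05. Hapln2, a matrix link protein of the node, stood at 112, 87.2 and 44.1 CPM, with log2 ratios of -0.36 and -1.34. Sirt2, a deacetylase of myelin, stood at 1329, 1212 and 3831 CPM, with log2 ratios of -0.13 and 1.53. Cd9, a tetraspanin, stood at 213, 426 and 534 CPM, with a log2 ratio of 1.32 in ULC and a ratio just short of 2-fold in ULI. Sirt2 and Cd9 exceeded the medians of the other classes in ULC, which were 0.35 and 0.55.

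**Figure D5:**
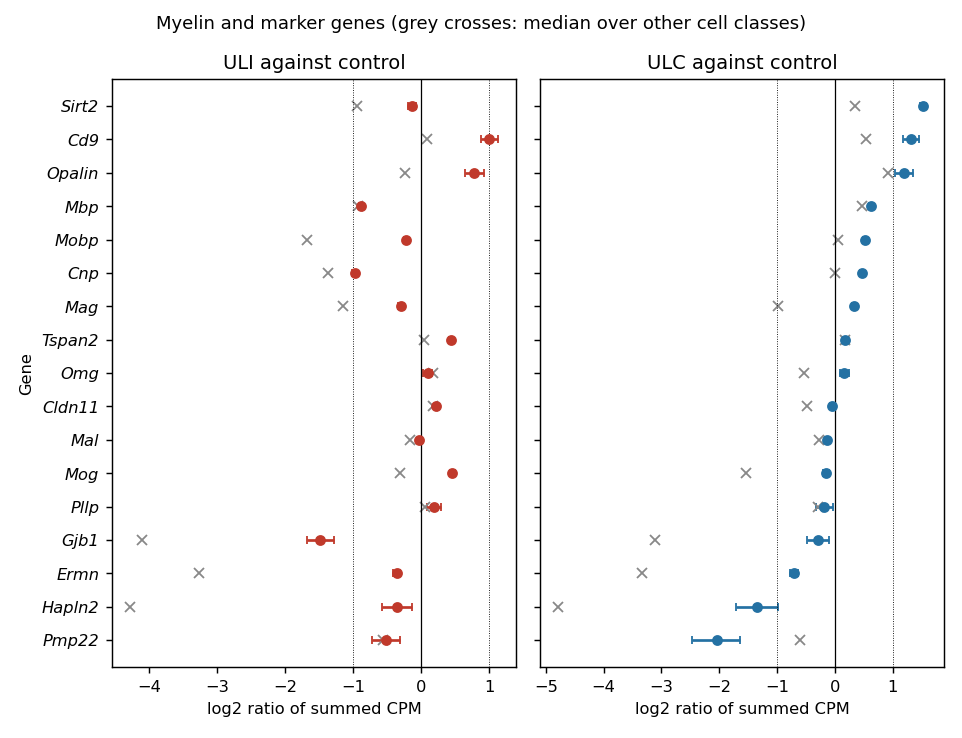
Log2 ratio of summed CPM to control for myelin and marker genes in members, in ULI (left) and ULC (right), with 95% counting intervals, dotted lines at 2-fold and grey crosses at the median over the other cell classes. Mal and Cldn11 lie near 0 on both sides, Gjb1 lies below the lower line in ULI, and Sirt2, Cd9 and Opalin lie above the upper line in ULC with Hapln2 and Pmp22 below the lower one.

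Among 18 genes of myelin lipid synthesis, 1 was higher and 3 lower in ULI, with a median log2 ratio of -0.42, and 2 were higher and 2 lower in ULC, with a median of -0.31. The shares over all genes were 5.64% higher and 12.1% lower in ULI, and 12.5% and 11.9% in ULC. Sgms1, sphingomyelin synthase, stood at 128, 33.6 and 17.3 CPM, with log2 ratios of -1.92 and -2.88 against -0.40 and -0.58 in the other classes. Elovl5, which lengthens polyunsaturated fatty acids, stood at 652, 279 and 150.2 CPM, with log2 ratios of -1.22 and -2.12. Both were lower on both operated sides. Fads1, a fatty acid desaturase, had 85, 175 and 156 UMIs, with log2 ratios of 1.33 and 2.14 against -0.02 and 0.07 in 7 other classes. Without the members that carried other markers, the log2 ratios were 2.60 and 3.16 for Fads1 and -1.40 and -2.40 for Sgms1.

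Genes of cholesterol synthesis had medians slightly below 0 on both sides. Of 24 measured in ULI, 0 were higher and 4 lower, among them Mvk, Dhcr7 and Mvd, with a median log2 ratio of -0.15. In ULC 4 of 23 were higher, among them Fdft1, Pmvk and Mvd, and 2 lower, among them Dhcr7, with a median of -0.16. Over all genes 5.64% were higher and 12.1% lower in ULI, and 12.5% and 11.9% in ULC. Mvd, a decarboxylase of the mevalonate steps, stood at 32.2, 12.7 and 80.5 CPM, with log2 ratios of -1.34 and 1.32. The medians of the other classes were near these values, at -1.63 over 4 classes and 1.11 over 6.

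Transcription factors of the lineage were mostly within 2-fold. Of 14 measured, 0 were higher and 2 lower in ULI (Nkx6-2 and Nkx2-2), and 3 were higher and 0 lower in ULC (Olig2, Olig1 and Sox2), where 12.5% of all genes were called higher and 9 of the 15 newly formed oligodendrocyte genes were. The part of newly formed cells in these ratios was not tested, and 12.1% of all genes were lower in ULI. The newly formed list holds the genes that the rule limits, and Itpr2 and Gpr17 were among its 9 higher genes. Olig2, which specifies the lineage, stood at 189.5, 249 and 609 CPM, with log2 ratios of 0.39 and 1.68 against 0.07 and 0.37 in 6 other classes. Olig1 stood at 489.6, 649 and 1195 CPM, with log2 ratios of 0.41 and 1.29. The myelination factors Myrf, at 672, 717 and 851 CPM, and Sox10, at 398, 315 and 353 CPM, were not past 2-fold in either comparison.

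Nfasc and Ank3 stood out among the genes of axon contact. Of 19 measured, 2 were higher and 1 lower in ULI and 2 were higher and 2 lower in ULC. Over all genes 5.64% were higher and 12.1% lower in ULI, and 12.5% and 11.9% in ULC. In ULC neither count of the list was above the share over all genes. Nfasc, neurofascin, whose glial form joins the myelin loops to the axon beside the node, stood at 1128, 3273 and 4361 CPM. Its log2 ratios were 1.54 (1.49 to 1.59) and 1.95, against 0.37 and 0.66 in 8 other classes. The scaffold ankyrin G, Ank3, stood at 478, 1062 and 1147 CPM, with log2 ratios of 1.15 and 1.26 against -0.09 and -0.41 in 7 other classes. Both genes were past 2-fold in members under 5000 UMIs (1.68 and 2.41 for Nfasc, 1.23 and 1.32 for Ank3) and in members above it (1.53 and 1.86, 1.16 and 1.37). Tenm4, a teneurin that promotes process outgrowth, was lower on both sides, at 125, 37.9 and 53.6 CPM, with log2 ratios of -1.72 and -1.22.

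Of 24 genes of cytoskeleton and process, 0 were higher and 7 lower in ULI, with a median log2 ratio of -0.44, and 1 was higher and 5 lower in ULC, with a median of -0.21. Among all genes 5.64% were higher and 12.1% lower in ULI, and 12.5% and 11.9% in ULC. Map1b, a microtubule-associated protein, stood at 367, 142 and 131 CPM, with log2 ratios of -1.37 and -1.49 against 0.11 and 0.07 in 8 other classes. Stmn4, a microtubule-destabilising stathmin, went in opposite directions, at 170.5, 80.6 and 789.8 CPM, with log2 ratios of -1.08 and 2.21. Its medians in the other classes were -2.40 over 4 classes and 0.61 over 5.

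Among 21 genes of receptors and growth factor signalling, 2 were higher and 5 lower in ULI, and 3 were higher and 5 lower in ULC, where 5.64% and 12.5% of all genes were higher and 12.1% and 11.9% lower. The list medians were -0.01 and 0.12, and 0.56 and 0.45 in members under 5000 UMIs. Igf1r, the receptor for insulin-like growth factor, had 222, 51 and 30 UMIs, with log2 ratios of -1.83 (-2.30 to -1.39) and -1.62 (-2.22 to -1.06). In the other classes the Igf1r medians were 0.18 and 0.22, and without the members that carried other markers its ratios were -1.49 and -1.09. P2rx7, an ATP-gated channel, had 126, 31 and 20 UMIs, with log2 ratios of -1.73 and -1.39. Erbb3, a neuregulin receptor, stood at 84.1, 152 and 203 CPM, with log2 ratios of 0.86 and 1.27. Gria2, an AMPA receptor subunit, stood at 32.4, 112 and 63.8 CPM, with log2 ratios of 1.79 and 0.98, the second short of 2-fold. Summed over all members, Igf1r and P2rx7 were thus lower on both operated sides than in control. Of the 5 lower genes of the list, 4 in ULI and 5 in ULC kept their sign in both depth classes and without the members that carried other markers.

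Part of the lysosomal genes were higher in ULC, most of them in the other classes too. Of 19 measured in ULI, 1 was higher and 1 lower, whereas of 20 measured in ULC, 8 were higher and 1 lower. The list medians were -0.26 and 0.36, with -0.25 and 0.04 in members under 5000 UMIs and -0.18 and 0.53 in deeper members. Of the 8 genes higher in ULC, 7 (87.5%) had an other-class median of the same sign and at least 0.5. Over all higher genes in ULC this share was 71.7%. The shares over all genes were 5.64% higher and 12.1% lower in ULI, and 12.5% and 11.9% in ULC. Ctsl, cathepsin L, was higher on both sides, at 213, 609.7 and 694 CPM, with log2 ratios of 1.52 and 1.70 against 0.50 and 0.20 in 8 other classes. Lamp1, a lysosomal membrane protein, stood at 150.4, 116 and 1582 CPM, with log2 ratios of -0.37 and 3.39, and the medians of the other classes were -0.52 and 2.89. Psap, the precursor of the saposins, stood at 513, 718 and 1973 CPM, with log2 ratios of 0.49 and 1.94 against 0.19 and 1.45. For Lamp1 and Psap, most of the ULC ratio was shared with the other classes.

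Several of the genes with the highest ratios came from a few cells. In ULI, S100a8, a neutrophil protein, had 382 UMIs in 11 members, and 86.7% of them lay in 1 cell. Calb1, a calcium buffer of Purkinje cells, had 449 UMIs in 5 members, 83.7% of them in 1 cell. Matn1, a matrix protein best known from cartilage, was spread more widely, with 1 UMI in 1 control member, 312 UMIs in 74 ULI members and 235 UMIs in 48 ULC members. The log2 ratio of Matn1 was 8.58 (6.09 to 13.89) in ULI and 9.15 (6.65 to 14.45) in ULC, intervals that rest on the single control UMI. Its medians over 2 other classes were 3.34 and 2.95. Kit, a receptor tyrosine kinase, had 9, 72 and 65 UMIs in 7, 32 and 36 members, with log2 ratios of 3.29 and 4.12, while 3 other classes had medians of -1.18 and -1.97. Without the members that carried other markers Kit had 3, 68 and 45 UMIs.

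At the low end, many of the strongest ratios belonged to endothelial and ependymal genes that were counted in few control members. The tight junction gene Cldn5 had 283 UMIs in 17 control members, 0 in ULI and 15 in 7 ULC members, and Tmem212, of motile cilia, had 214 UMIs in 12 control members and 0 in ULI and ULC. Without the members that carried other markers, the number of genes lower than control was 593 instead of 1041 in ULI and 539 instead of 978 in ULC.

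Across all genes, many differences in members were shared by other classes of the same libraries. Of 879 genes lower in ULI than in control with at least 4 other classes measured, 558 (63.5%) had an other-class median of the same sign and at least 0.5 on the log2 scale, and of 376 higher genes 160 (42.6%) did. In ULC these shares were 395 of 838 (47.1%) lower genes and 682 of 951 (71.7%) higher genes. Among the genes named above, Sgk1, Cdkn1a, Nfasc, Ank3, Map1b, Igf1r and Sgms1 had members' ratios at least 1 log2 unit from the other-class medians in at least 1 of the comparisons. They were picked for this statement after their values were seen, and the share of all genes that far from the median is not given. The median is taken over unlike classes, so it does not show that a ratio was particular to the members.

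ULI and ULC members, from the 2 sides of the same pooled animals, were also set against each other. Of 7497 genes measured, 434 (5.79%) were higher and 1007 (13.4%) lower in ULI, so 30.1% of the calls were higher. With trimmed-mean scaling 40.2% were higher. The median log2 ratio over all genes was 0.10. Of 920 genes lower in ULI with at least 4 other classes measured, 850 (92.4%) were lower by at least 0.5 in the other-class median too, against 108 of 345 (31.3%) of those higher.

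Mbp and Cnp were lower in ULI than in ULC, with log2 ratios of -1.51 and -1.45, and over 8 other classes the medians were -1.70 and -1.36. The ratio of Ptgds was -1.01 (-1.07 to -0.95) in members and -0.77 over 6 other classes. Olig2 had a ratio of -1.29 against -0.76. Of 20 glucocorticoid-responsive genes, 1 was higher in ULI and 6 lower, with a median log2 ratio of -0.36 against -0.31 for the other classes, and Ddit4 had a ratio of -2.39 against -2.36. Of 20 lysosomal genes 0 were higher and 7 lower, with a median of -0.52 against -0.53. Anxa5 and Pmp22 went the other way, with ratios of 1.09 and 1.53, where the other classes had -0.15 and 0.14.

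Compared with mature oligodendrocytes that carried Klk6, members differed within each library in genes that accompany Klk6. Since Klk6 chose the cells and the cells share libraries, this is a description. Of 4894 genes measured, 116 (2.37%) were at least 2-fold higher in members in all 3 libraries and 26 (0.531%) lower. Lower genes included Hopx, with log2 ratios of -2.03, -2.75 and -3.91 in control, ULI and ULC, the cell cycle inhibitor Cdkn1c, with -2.02, -2.84 and -3.93, and Anxa5, with -1.59, -2.73 and -3.69. S100b had -1.44, -2.57 and -2.71, Pmp22 had -1.64, -2.45 and -3.08, and Apod had -1.02, -1.72 and -2.24. Ptgds was higher in members by log2 ratios of 3.47, 3.77 and 3.47, and Cxcl12, a chemokine, by 4.44, 3.79 and 3.64. Mal differed by 0.35, 0.39 and 0.09, while Opalin, a gene of the rule, was higher in members of at least 5000 UMIs than in Klk6 cells of that depth by 2.73, 3.85 and 2.64. The depth of the Klk6 cells was a median of 16230.5, 12408.5 and 916.5 UMIs, and between cells of at least 5000 UMIs the S100b ratios were -1.80, -2.88 and -4.22 and the Ptgds ratios were 3.75, 3.79 and 3.70.

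Compared with newly formed oligodendrocytes, 126 cells in control, 380 in ULI and 302 in ULC, members differed in genes named here after their values were seen. Of 6294 genes measured, 208 (3.3%) were at least 2-fold higher in members in all 3 libraries and 478 (7.59%) lower. Mal was higher by log2 ratios of 1.79, 6.07 and 5.61, Car2 by 2.81, 5.64 and 5.11, and the axon-glia adhesion gene Cntn2 by 3.21, 5.59 and 5.03. Among the lower genes were Tnr, tenascin R, by -7.64, -7.05 and -6.85, Vcan, versican, by -6.78, -7.22 and -6.83, and Sox6 by -5.03, -7.00 and -5.31. The rule itself set these cell sets apart on newly formed genes and limits precursor genes in both. The gap in Mal was smallest in control, where newly formed cells had 3464 CPM of Mal against 174 in ULI and 223 in ULC. Anxa5, too, stood at 342 CPM in newly formed cells of control and at 20.2 and 22.5 CPM in those of ULI and ULC. Newly formed cells were taken with or without Klk6 UMIs, unlike the members. The part of cells with Klk6 in these Mal and Anxa5 levels was not tested. Median depths of the newly formed cells were 1264, 7175.5 and 901.5 UMIs.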

How the data were processed

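Single-cell RNA was measured in 3 libraries, 1 per group. The authors deposited one table of UMI counts per gene and barcode, not normalized. The submitters' processing notes name CASAVA 1.8, Seurat, UMI-tools and mm10. The capture platform is named differently in the labels, the design text and the study (BD Rhapsody, Drop-seq and 10X Genomics), and the sources used here do not name the annotation and filters behind the table. The barcodes carry running codes, so barcodes shared between libraries could not be counted.

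The members and gene lists were chosen with earlier results of these data known. From the counts, UMIs of the members were summed per library and expressed as CPM with exact Poisson intervals. Ratios between libraries were given exact binomial intervals at 95%, and a gene was called at 50 or more UMIs in both libraries together, a ratio of 2-fold or more and an interval without equality. A gene at 0 was set to a floor of 3 UMIs. No test was possible with 1 library per group, and no p-value is given. Shares have exact binomial (Clopper-Pearson) intervals. Intervals and floors cover counting error only. The 8 other cell classes included mature oligodendrocytes with Klk6, newly formed oligodendrocytes, and choroid plexus cells with 5% or more Ttr. The rest were precursors, microglia, astrocytes, neurons and endothelium, each taken as cells with 3 or more of the first 6 markers of its list. The median ratio was taken over classes with at least 20 UMIs of the gene.

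Genes were named by a fixed rule: every gene of the selection rule, the 10 highest and 10 lowest called ratios of each comparison, up to 6 genes per list (called ones first, then those with most UMIs), and up to 10 called in the same direction on both sides. Genes named beyond it, and those named in the comparisons with Klk6 cells and newly formed cells, were chosen after their values were seen. The 34 gene lists hold known members of each pathway or cell type.

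Doublets were kept. Leaving out the top 5% of Scrublet scores was an alternative, as were thinning, other cell filters, a minimum of 20 UMIs or none, and other scaling (trimmed mean, and DESeq2 size factors). Leaving out members with 2 or more markers of another class, splitting members at 5000 UMIs, and requiring a UMI in 5% of members were chosen after seeing the data. Library medians were 3177, 2100 and 931 UMIs per cell. Promoter sequences came from RefSeq on GRCm38.p6. Python 3.11.15, numpy 2.4.6, scipy 1.17.1, pandas 2.3.3, scanpy 1.11.5, R 4.3.3, edgeR 4.0.16 and DESeq2 1.42.0 were used. Some genes of the lists are counted in the totals but are not reported here by name.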

Additional observations from a re-analysis of the deposited data

How the results depend on the processing

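No paired analysis was possible because each group had 1 library. Every difference is therefore without a replicate check.

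The member share of control, ULI and ULC was 18.4%, 15.8% and 15.2% thinned to 500 UMIs, 17.6%, 11.2% and 10.3% thinned to 1000 UMIs, 11.2%, 9.74% and 11.02% at 500 or more genes per cell, 12.4%, 16.9% and 17.4% at up to 20% mitochondrial UMIs, 12.7%, 14.3% and 13.2% at 4 or more markers, and 21.2% in ULC over cells other than choroid plexus.

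The genes higher and lower in ULI than in control (484 and 1041) became 173 and 177 thinned to 500 UMIs, 139 and 208 thinned to 1000, 769 and 1721 with a minimum of 20 UMIs, 1072 and 2189 with no minimum, 247 and 653 with a UMI in 5% of members, and 291 and 338 in members under 5000 UMIs. In ULC against control (1022 and 978) they became 333 and 206, 212 and 239, 1539 lower with 20 UMIs, 1932 and 1649 with no minimum, 663 higher with 5% of members, and 511 and 325 under 5000 UMIs. Without the members carrying other markers the genes lower than control were 593 in ULI and 539 in ULC. In ULI against ULC (434 and 1007) they became 56 and 241, 66 and 149, 734 and 1577, 856 and 2254, 197 and 655, and 124 and 424, in the order given for ULI against control. Against Klk6 cells (116 and 26) they became 13 and 0 thinned to 1000 UMIs and 188 and 41 with a minimum of 20, and against newly formed cells (208 and 478) they became 20 and 48 thinned to 1000. Thinning leaves fewer UMIs and fewer genes to call. Scaling by trimmed mean or by DESeq2 size factors, and leaving out the top 5% of Scrublet scores, moved none of the gene counts between libraries by over 1.5 times. These settings were not applied to the comparisons with Klk6 cells and newly formed cells.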
